A study of Mus musculus with 24 samples.

Results

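The action of the vitamin D hormone on RNA levels was compared between marrow-derived mesenchymal stem cells (MSC) before differentiation and the same kind of cells after adipogenic differentiation. The comparison rests on 12 of the 24 mouse libraries of the study, in 4 groups of 3. Undifferentiated cells (day 0, no differentiation medium) received ethanol vehicle or 100 nM 1,25(OH)2D3, the hormonal form of vitamin D, for 24 hours before RNA was taken. Cells kept for 7 days in adipogenic medium, which held 5 µg/mL insulin, 50 µM indomethacin and 0.1 µM dexamethasone, received the same vehicle or hormone treatment. All 4 groups came from cryopreserved stocks of at most 10 passages, in MEM alpha with 10% fetal bovine serum. No undifferentiated culture of 7 days was among the samples, so the medium and the time in culture cannot be told apart. The quantity described is a difference of differences: the hormone effect on adipogenic day 7 (hormone minus vehicle) minus the hormone effect at day 0, on the log2(RPKM + 1) scale. RPKM is a read count divided by transcript length and by the library's mapped reads. Of 21097 genes tested, 6924 reached a group mean of 10 RPKM in 1 or more of the 4 groups. Among these, 481 genes passed limma's test of the difference at an adjusted p below 0.05, which is the meaning of "called" below. The 481 genes called above 10 RPKM are the ones described.

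1,25(OH)2D3 enters cells and binds the vitamin D receptor Vdr, a nuclear receptor that pairs with a retinoid X receptor on DNA and raises or lowers transcription of target genes. One of its strongest targets is Cyp24a1, the enzyme that inactivates the hormone. MSC of the marrow can become osteoblasts, which build bone matrix, or adipocytes, which store fat under control of the transcription factors Pparg and Cebpa. In osteoblast-lineage cells the hormone is known to act on genes of bone matrix and its mineral, such as the phosphoproteins Spp1 and Ibsp and the collagenase Mmp13.

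The adipogenic libraries carried the label's cell type in their RNA. All 6 adipocyte markers (Fabp4, Adipoq, Plin1, Cidec, Cfd, Pparg) had means above 10 RPKM there, with a summed level of 24894 to 29973 RPKM against 76.6 to 120.1 RPKM at day 0. Of the 6 stromal markers, Eng and Thy1 had day 0 vehicle means of 0.662 and 1.06 RPKM, while Cxcl12, Pdgfra, Pdgfrb and Ly6a lay above 10 RPKM. The markers of blood cells (5), endothelium (3) and cartilage (3) had summed levels of at most 11.9, 4.25 and 5.10 RPKM in any of the 12 libraries. Smooth muscle and osteoblast markers reached higher sums, up to 749.6 and 119.2 RPKM, and are described further on. The 6 stromal markers summed to 1113 to 1119.8 RPKM with vehicle and 569 to 626 RPKM with hormone at day 0, and to 72.0 to 87.4 and 55.2 to 57.8 RPKM in adipogenic cells. Most of the day 0 sum was Cxcl12, with means of 943 and 477 RPKM. Pdgfrb, Ly6a and Thy1 also had lower means with hormone at day 0, while Pdgfra (70.3 and 70.1 RPKM) and Eng (0.662 and 0.711 RPKM) stayed about level. In adipogenic cells the means of Cxcl12 and Ly6a were lower with hormone, and those of Pdgfra, Pdgfrb, Eng and Thy1 were not. Depth, estimated from the steps of low values and given in M (1e+06) reads, was 7.13 to 11.01 M in 5 of the 6 day 0 libraries, 38.5 M in the remaining one (hormone replicate 2) and 21.2 to 33.2 M in the adipogenic libraries. The same 5 libraries had a median of 3.38 to 4.93 RPKM on 1488 olfactory, vomeronasal and taste receptor genes, which are normally silent outside sensory tissue. Hormone replicate 2 of day 0 had 0.456 RPKM and the adipogenic libraries 0.494 to 1.3 RPKM. Over the 1465 sensory receptor genes tested, the median difference of hormone effects was 0.79 with 14 called higher, and it was 0.22 with 4 called once hormone replicate 2 of day 0 was left out. The floor of 10 RPKM lies above this background level. It had to be reached in 1 group only, so a described gene can lie at the background in its other groups. Below the floor 234 genes were called higher and 17 lower, which are not described. Whether the replicates of a group were separate cultures is not stated in the labels, and the p-values rest on the spread of these libraries alone, which may be technical. In bulk RNA, fewer cells of a type and less RNA per cell cannot be told apart.

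**Figure D1:**
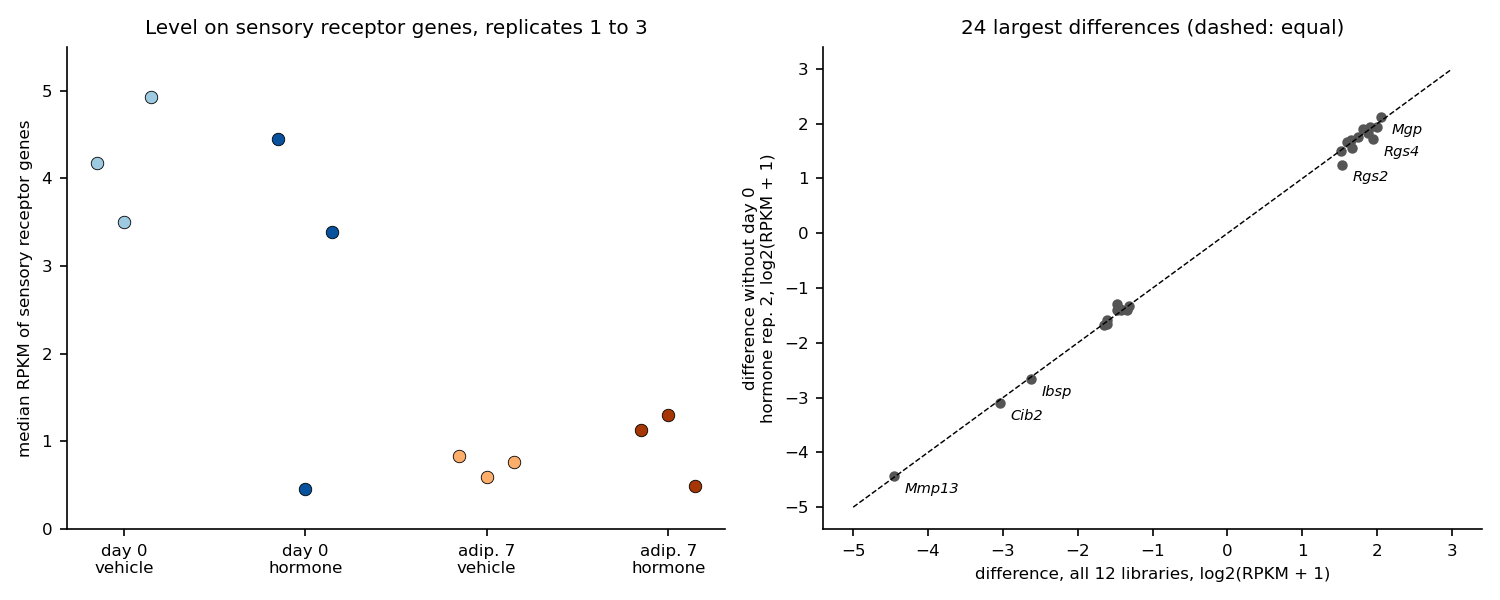
Left, the median RPKM of 1488 sensory receptor genes in each of the 12 libraries by group, on a linear axis. Right, the difference of hormone effects of the 24 genes with the largest differences with all 12 libraries (x axis) and without day 0 hormone replicate 2 (y axis), with dashed line at equality; that library sits at 0.456 RPKM on the left, and leaving it out kept every one of the 24 genes near the line, with Rgs2 and Rgs4 the farthest below it.

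The hormone changed fewer genes in adipogenic cells than at day 0. Among genes of at least 10 RPKM, 240 rose (3.47%) and 101 fell (1.46%) with hormone on adipogenic day 7, in all 4.92%, while 709 rose (10.2%) and 743 fell (10.7%) at day 0, in all 21.0%. The difference itself was called for 481 genes (6.95%), of which 285 (4.12%) had a higher and 196 (2.83%) a lower effect in adipogenic cells. The day 0 split moved with scaling: equal background subtraction gave 966 rises and 440 falls, GC-matched subtraction 1062 and 490, and median-ratio rescaling 1001 and 207, or 647 and 964 over genes of 20 RPKM or more. In most of the 481 genes the day 0 effect was the larger in size: 224 of the 285 and 178 of the 196. These genes were selected by the difference of the same 2 effects. Day 0 effects were also called more often over all genes above 10 RPKM (21.0% against 4.92%). The counts are therefore a description of the 481 and no separate result. The most frequent pattern among the 285 was a fall at day 0 with no call in adipogenic cells (202 genes), followed by a rise in adipogenic cells with no call at day 0 (28 genes). Another 17 fell in both states, 12 rose in both, 16 fell at day 0 and rose in adipogenic cells, and 10 were called in neither. Among the 196, 144 rose at day 0 with no call in adipogenic cells, 33 rose in both, 7 fell in adipogenic cells with no call at day 0, 3 fell in both, 2 rose at day 0 and fell in adipogenic cells, and 7 were called in neither. The difference was at least 2-fold for 81 of the 285 and 42 of the 196, with median sizes of 0.76 and 0.69 on the log2 scale. At the 10 RPKM border, Nsdhl (9.97 RPKM) and Slc41a2 (9.99 RPKM) fell just outside and Pfkp (10.01 RPKM) just inside.

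**Figure D2:**
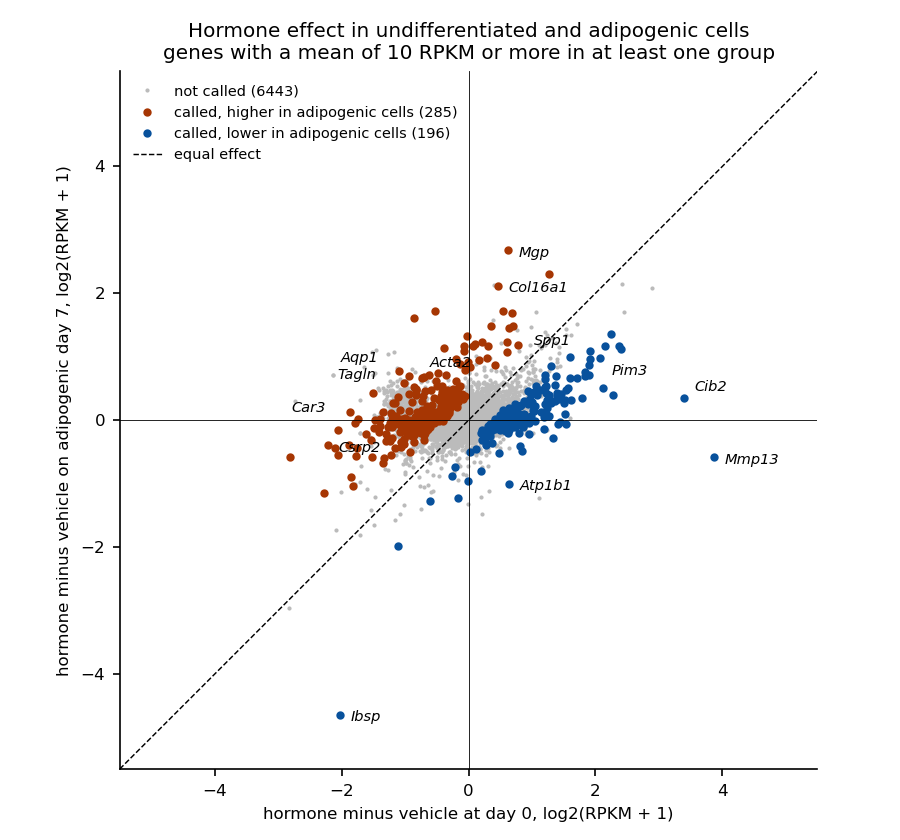
Each point is 1 of the 6924 genes that reached 10 RPKM: hormone minus vehicle at day 0 (x axis) and on adipogenic day 7 (y axis), both on log2(RPKM + 1). The 285 genes called higher in adipogenic cells lie above the dashed line of equal effect and the 196 called lower lie below it, with Mmp13, Cib2 and Ibsp the farthest from it among the lower ones; most called genes spread along the x axis and stay near 0 on the y axis.

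How the 481 split by direction depended on the scaling of the libraries, while the direction of single genes rarely did. Higher effects made up 59.3% of the calls with RPKM as deposited, 43.2% after quantile normalization, 34.1% and 36.3% after subtraction of an equal or a GC-matched background, and 15.3% (46 higher, 254 lower) after rescaling by median ratios. Median-ratio rescaling moved the median difference of genes above 10 RPKM from 0.03 to -0.30, so a gene's or list's value is best read against that median. None of the genes tested changed sign under these scalings (466 of the 481 with the GC-matched background, 481 with each other one), and 2 did with a pseudocount of 0.1 and 2 when each symbol was represented by its largest transcript. Calls were less stable than signs. Of the 481 genes, 236 were still called in the same direction after median-ratio rescaling (462 over genes of 20 RPKM or more) and 421 after quantile normalization. The number was 364 and 396 after subtraction of an equal or a GC-matched background, and 305 with the replicate number as a block. Without day 0 hormone replicate 2, 221 higher and 142 lower calls were made, with 356 of the 481 among them.

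Mmp13, which encodes the collagenase MMP-13 that cleaves fibrillar collagen in bone and cartilage, had the largest difference. Its day 0 level was 13.6, 12.4 and 15.2 RPKM in the 3 vehicle libraries and 192, 219 and 231 RPKM with hormone. In adipogenic cells the level was 24.3, 27.9 and 26.2 RPKM with vehicle and 15.8, 17.5 and 18.0 RPKM with hormone. The hormone libraries thus all lay above the vehicle libraries at day 0 and all below them in adipogenic cells. The hormone effect was 3.87 ± 0.12 at day 0 (15.6-fold higher, adjusted p = 2.03e-15) and -0.59 ± 0.12 in adipogenic cells (1.53-fold lower, adjusted p = 0.00570). The difference was -4.46 ± 0.17 (log2 ± SE, adjusted p = 1.53e-13).

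Ibsp, bone sialoprotein, a mineral-binding protein of bone matrix, also had a lower effect in adipogenic cells, but through a deeper fall. Day 0 vehicle libraries held 9.95, 9.73 and 8.97 RPKM and day 0 hormone libraries 1.76, 1.42 and 1.61 RPKM. With adipogenic medium the level was 97.5, 102 and 113 RPKM with vehicle and 3.37, 3.54 and 2.77 RPKM with hormone. The vehicle level was thus far above that of day 0, while the hormone libraries of both states were the lowest. Both falls passed the test, 5.97-fold at day 0 and 32.3-fold in adipogenic cells, and their difference was -2.62 ± 0.15 (adjusted p = 2.20e-10). The day 0 hormone values lay below the background level of 2 of those 3 libraries.

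The stretches before the start sites of Mmp13 and Ibsp, the pair with the largest differences among genes of bone matrix, and of Myl9, a contractile gene described further on, are printed to show what the motif search found. Each line holds the 250 bases before a RefSeq start site on GRCm38.p6, on the gene's strand, joined by symbol, since the deposited values rest on the mm9 build. Capitals mark matches: in Mmp13 (chr9:7272264-7272513, plus strand) a Runx site and an AP-1 site, in Ibsp (chr5:104299037-104299286, plus strand) a CCAAT box read on the other strand, in Myl9 (chr2:156775214-156775463, plus strand) a CArG box.
Mmp13: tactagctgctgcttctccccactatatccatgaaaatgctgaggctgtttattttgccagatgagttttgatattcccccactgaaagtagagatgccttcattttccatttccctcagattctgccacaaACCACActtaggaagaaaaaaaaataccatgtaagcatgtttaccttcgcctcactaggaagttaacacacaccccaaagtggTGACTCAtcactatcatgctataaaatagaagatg
Ibsp: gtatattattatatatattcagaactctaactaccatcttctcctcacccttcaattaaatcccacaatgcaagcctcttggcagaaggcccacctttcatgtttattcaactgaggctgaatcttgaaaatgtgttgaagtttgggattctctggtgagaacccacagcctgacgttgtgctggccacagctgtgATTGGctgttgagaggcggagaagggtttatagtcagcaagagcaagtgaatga
Myl9: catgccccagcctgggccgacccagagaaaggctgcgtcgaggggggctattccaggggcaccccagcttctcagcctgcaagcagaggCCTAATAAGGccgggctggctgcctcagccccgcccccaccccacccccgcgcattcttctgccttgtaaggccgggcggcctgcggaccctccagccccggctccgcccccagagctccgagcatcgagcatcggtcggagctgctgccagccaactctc
The AP-1 site of Mmp13 starts 35 bases and the Runx site 118 bases before the transcription start, the CCAAT box of Ibsp 54 bases and the CArG box of Myl9 161 bases before it. Motifs were searched on both strands as TGACTCA or TGAGTCA (AP-1), ACCACA (Runx), CCAAT, the CArG box bound by serum response factor, and the vitamin D response element with a spacer of 3 bases. RefSeq start sites were found for 180 of the 285 genes (233 promoters) and 134 of the 196 genes (167 promoters). A CArG box stood in 4.29% of the former and 0% of the latter, beside 1.14% of 5591 promoters of genes above 10 RPKM and 1.47% of all 32851 promoters. An AP-1 site stood in 5.15% and 3.59%, beside 3.18% of promoters of genes above 10 RPKM and 4.46% of all promoters. For a Runx site the shares were 11.2% and 8.38%, beside 10.7% and 14%, and for a CCAAT box 41.2% and 34.7%, beside 36.1% and 33.8%. The vitamin D element was found in neither set of promoters and in 13 of all 32851. These shares describe the letters of a short window and were not tested.

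Vdr itself rose with hormone in both states. Its values were 2.41, 2.48 and 2.48 RPKM with vehicle and 4.32, 3.84 and 4.24 RPKM with hormone at day 0. On adipogenic day 7 they were 0.719, 0.821 and 0.797 and 2.56, 2.91 and 3.19 RPKM. The groups did not overlap in either state, and the difference of effects was 0.56 ± 0.25 (adjusted p = 0.198), which did not pass the test. The day 0 vehicle values of Vdr lay below the sensory receptor median of their libraries, and the hormone libraries' medians were 4.45, 0.456 and 3.38 RPKM.

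Cyp24a1 was likewise raised in both states, from 1.79, 2.19 and 0.894 to 13.1, 12.4 and 13.6 RPKM at day 0. In adipogenic cells it went from 0.312, 0.0970 and 0.347 to 2.74, 3.57 and 2.99 RPKM. The difference was -0.74 ± 0.27 (adjusted p = 0.131) and so was not called. Its sign and call depended on the treatment of low values: it was 0.25 with a pseudocount of 0.1, and it was called at -1.72 after GC-matched background subtraction (adjusted p = 0.000111). As plain ratios of means the rises were 8.04-fold at day 0 and 12.3-fold in adipogenic cells.

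Of the receptor, its partners and the metabolizing enzymes, 6 of 19 listed genes reached 10 RPKM and 0 were called by limma's adjusted p, with 2 at an unadjusted p below 0.05 and 1 called lower under quantile normalization or background subtraction. Among 34 genes described as vitamin D targets in bone, gut or immune cells, 15 reached 10 RPKM, of which 2 had a higher effect in adipogenic cells (Mgp, Alpl) and 4 a lower one (Ibsp, Enpp3, Nrip1, Thbd), beside 4.12% and 2.83% of all genes above 10 RPKM. With hormone, 9 of the 15 rose and 3 fell at day 0, beside 10.2% and 10.7% of all genes above 10 RPKM. In adipogenic cells 8 rose and 2 fell, beside 3.47% and 1.46%. Spp1, the matrix phosphoprotein osteopontin, was the example of a nearly equal response. It went from 2032, 1815 and 2067 to 3405, 3769 and 3879 RPKM at day 0. On adipogenic day 7 it went from 121, 138 and 142 to 259, 264 and 275 RPKM. The rises were 1.87-fold and 1.99-fold, and the difference of 0.09 ± 0.14 was not called (adjusted p = 0.709).

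Mgp, matrix Gla protein, an inhibitor of calcification, had the largest higher effect among the genes named. Day 0 libraries held 436, 468 and 473 RPKM with vehicle and 699.9, 771 and 657 RPKM with hormone. Adipogenic libraries held 17.0, 14 and 10.3 RPKM with vehicle and 75.2, 115 and 89.4 RPKM with hormone. All hormone libraries lay above all vehicle libraries in both states, and the rise was 1.55-fold at day 0 and 6.77-fold in adipogenic cells. The difference was 2.05 ± 0.27 (adjusted p = 5.89e-05), and the hormone level in adipogenic cells stayed below that of day 0 vehicle cells.

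Col16a1, a fibril-associated collagen, rose in both states at lower levels. It went from 8.90, 8.50 and 7.12 to 11.4, 12.5 and 11.0 RPKM at day 0. From 1.42, 1.18 and 0.931 RPKM with vehicle it reached 8.65, 8.47 and 8.02 RPKM with hormone in adipogenic cells, near its day 0 vehicle level. The difference was 1.65 ± 0.17 (adjusted p = 2.01e-06), and the ratio of means was 1.42 at day 0 and 7.12 in adipogenic cells.

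Alpl, the alkaline phosphatase that osteoblasts need for mineralization, was called through its day 0 fall. Its level was 4.31, 5.80 and 6.19 RPKM with vehicle and 1.55, 1.22 and 1.78 RPKM with hormone at day 0. In hormone replicates 1 and 3 of day 0 it lay below the background median of the library (4.45 and 3.38 RPKM). Adipogenic cells had 14.4, 18.0 and 19.4 RPKM with vehicle and 19.9, 19.3 and 17.5 RPKM with hormone, which overlapped. The difference was 1.48 ± 0.22 (adjusted p = 0.000289), and it did not pass after subtraction of an equal background (0.88, adjusted p = 0.221).

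Enpp3, an ectonucleotide pyrophosphatase, was called with a lower effect, but its sign turned with the pseudocount. It rose from 6.29, 5.52 and 4.94 to 25.7, 30.1 and 28.6 RPKM at day 0. In adipogenic cells, from 0.281, 0.114 and 0.623 RPKM, it rose to 1.63, 2.23 and 2.07 RPKM. The log2(RPKM + 1) difference of -0.98 ± 0.19 (adjusted p = 0.00450) became 0.09 with a pseudocount of 0.1, and the ratios of means were 5.04 and 5.83. The other two targets called lower, Nrip1, a corepressor of nuclear receptors (-0.68), and Thbd, thrombomodulin (-0.65), were outside the rule for named genes and were named after their values were seen.

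**Figure D3:**
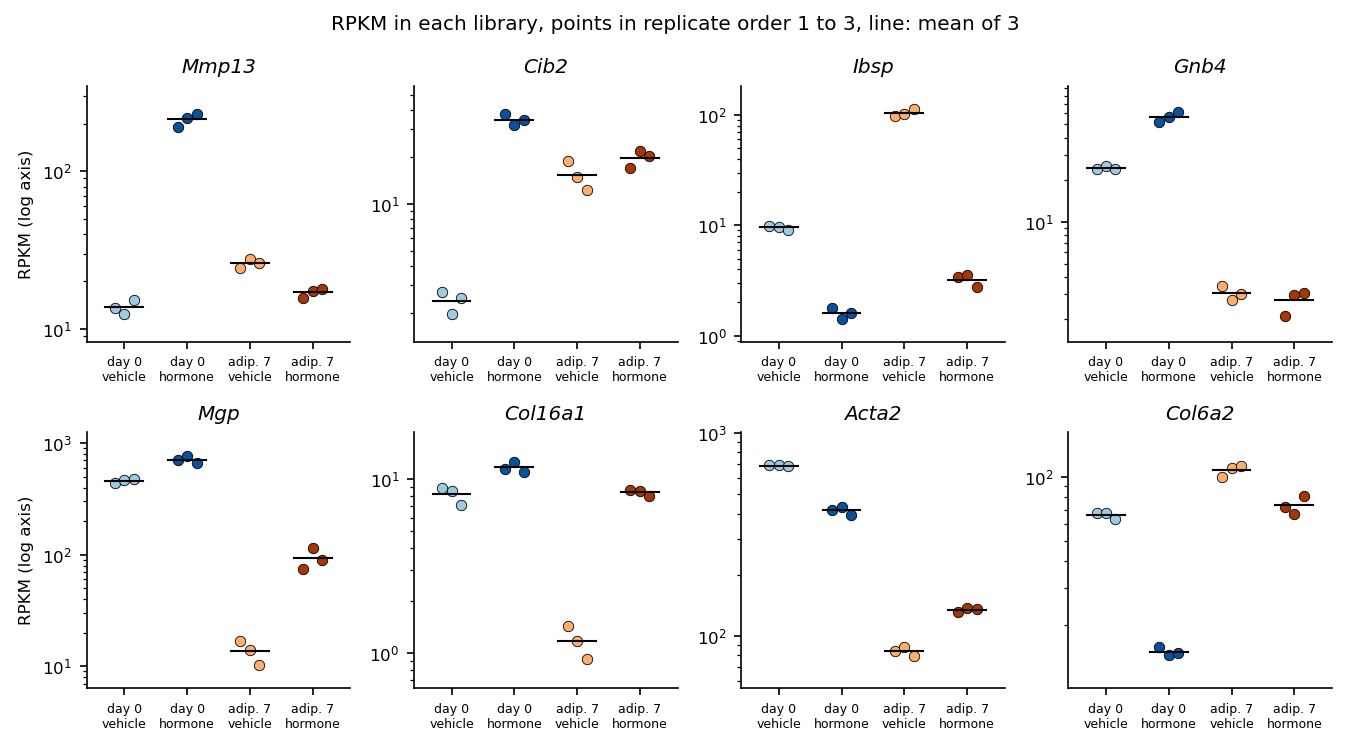
RPKM of 8 genes in each of the 12 libraries on log axes, with 3 points per group in replicate order and a line at the group mean. Mmp13 rises with hormone at day 0 and falls in adipogenic cells, Ibsp falls with hormone in both states, from 97.5 RPKM or more to 3.54 RPKM or less in adipogenic cells, Mgp and Col16a1 rise most in adipogenic cells, Acta2 moves down at day 0 and up in adipogenic cells, and Col6a2 falls more at day 0.

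Besides Mmp13 and Ibsp, 10 more genes made up the 12 with the largest lower effects in adipogenic cells. All 10 rose at day 0, and of them Atp1b1 alone passed the test of the hormone effect in adipogenic cells. Cib2, a calcium- and integrin-binding protein, went from 2.72, 1.96 and 2.48 to 37.6, 31.7 and 34.3 RPKM at day 0. Adipogenic libraries had 18.7, 14.8 and 12.1 RPKM with vehicle and 16.8, 21.8 and 20.1 RPKM with hormone, and these groups overlapped. Its day 0 rise was 14.5-fold, and the difference was -3.04 ± 0.29 (adjusted p = 8.81e-07). Its vehicle values at day 0 lay below the background median, and hormone replicate 2 of day 0, which had the low background, read close to the other hormone libraries.

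Pim3, a serine/threonine kinase, rose from 8.68, 9.99 and 8.12 to 42.8, 43.4 and 40.1 RPKM at day 0. In adipogenic cells it read 53.7, 43.1 and 46.0 RPKM with vehicle and 67.6, 65.6 and 71.3 RPKM with hormone, a change that did not pass the test (adjusted p = 0.0569). The difference was -1.61 ± 0.20 (adjusted p = 2.59e-05), and the adipogenic vehicle level was close to the day 0 hormone level.

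Mrap, the accessory protein that carries the ACTH receptor to the cell surface and is known from adipocytes and adrenal cells, rose from 19.6, 19.5 and 18.3 to 71.5, 74.6 and 60.2 RPKM at day 0. It read 288, 261 and 282 RPKM with vehicle and 336, 342 and 387 RPKM with hormone in adipogenic cells. Its vehicle level was thus higher in adipogenic cells than the day 0 hormone level, and the difference was -1.43 ± 0.20 (adjusted p = 0.000100). Sepp1, the plasma selenium carrier selenoprotein P, had day 0 values of 397, 379 and 382 RPKM with vehicle and 1079.6, 1163 and 1103 RPKM with hormone. Its adipogenic values were 1176, 1150.5 and 1130.3 and 1125, 1316 and 1271 RPKM, and its difference was -1.43 ± 0.15 (adjusted p = 3.90e-06). The deposited values divide Sepp1 over 3 transcripts in proportions that differ between libraries, and the largest transcript alone had a difference of 0.13.

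Atp1b1, the beta subunit of the sodium pump, moved in opposite directions. It went from 11.2, 10.2 and 11.4 to 17.4, 16.9 and 18.6 RPKM at day 0. Adipogenic cells showed 13.1, 11.7 and 13.1 RPKM with vehicle and 6.04, 5.06 and 6.36 RPKM with hormone, a 2.17-fold fall. The 2 effects passed the test separately (adjusted p = 0.0123 and 0.000567), and the difference was -1.65 ± 0.23 (adjusted p = 0.000163). Mmp13 and Atp1b1 were the only genes of at least 10 RPKM with a called rise at day 0, a called fall in adipogenic cells and a called difference.

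Gnb4, a G-protein beta subunit, had its higher level at day 0, with 23.8, 24.8 and 23.7 RPKM with vehicle and 51.9, 55.7 and 60.9 RPKM with hormone. In adipogenic cells it was at 3.44, 2.75 and 3.01 RPKM with vehicle and 2.11, 2.98 and 3.06 RPKM with hormone, and these groups overlapped. Its difference was -1.32 ± 0.16 (adjusted p = 3.21e-05). Ctnnal1 (alpha-catulin, a relative of alpha-catenin) rose 2.93-fold at day 0 and had a difference of -1.48 ± 0.15. Rab20, a small GTPase of endosomes, rose 3.11-fold at day 0 and had a difference of -1.47 ± 0.30, with day 0 hormone values of 10.4, 16.3 and 11.1 RPKM. Fam110c rose 2.86-fold at day 0 with a difference of -1.62 ± 0.16, and F11r, the junctional adhesion molecule A, rose 1.95-fold with a difference of -1.34 ± 0.20. In adipogenic cells none of these 5 passed the test of the hormone effect. At day 0 the vehicle means of Rab20, Fam110c and F11r were 4.06, 4.23 and 4.57 RPKM. The background medians of those vehicle libraries were 3.50 to 4.93 RPKM, so the day 0 folds of these genes start at the background.

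On the higher side, 9 of the 12 genes with the largest differences fell with hormone at day 0, the others being Mgp, Col16a1 and Rgs2. Olfml3, a secreted matrix protein, fell from 108, 116 and 101 to 26.3, 26.6 and 22.8 RPKM at day 0. Its adipogenic values were 21.4, 22.5 and 22.6 RPKM with vehicle and 22.4, 19.9 and 17.3 RPKM with hormone. The day 0 hormone level was therefore close to both adipogenic levels, and the difference was 1.90 ± 0.14 (adjusted p = 1.71e-08). Csrp2, a LIM-domain protein of muscle and stellate cells, followed the same course, from 155, 149 and 169 to 27.6, 38.4 and 34.8 RPKM at day 0. It read 24.5, 26.0 and 22.2 RPKM with vehicle and 15.6, 20.2 and 18.7 RPKM with hormone in adipogenic cells, and the difference was 1.81 ± 0.18 (adjusted p = 1.78e-06).

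The G-protein regulators Rgs4 and Rgs2 were both called higher. Rgs4 fell from 12.2, 13.1 and 11.5 to 4.32, 2.36 and 4.61 RPKM at day 0. It was at 0.700, 0.669 and 0.558 RPKM with vehicle and 1.13, 1.57 and 0.988 RPKM with hormone in adipogenic cells, levels near the background, and the difference was 1.95 ± 0.31 (adjusted p = 0.000607). Rgs2 moved in the other state. It read 5.72, 6.84 and 5.74 RPKM with vehicle and 5.76, 2.68 and 5.32 RPKM with hormone at day 0, which overlapped. In adipogenic cells it rose from 6.23, 6.77 and 7.17 to 14.8, 16.4 and 16.8 RPKM, with a difference of 1.53 ± 0.27 (adjusted p = 0.00163). The low day 0 value of Rgs2 belonged to hormone replicate 2, and without that library the difference was 1.25 (adjusted p = 0.00316). Subtraction of a background ended the call of Rgs2 (0.96 when GC-matched, adjusted p = 0.0815, and 1.15 when equal, adjusted p = 0.0882).

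Aqp1, a water channel, was lowered at day 0 and raised in adipogenic cells. Its day 0 levels were 16.4, 14.6 and 10.3 RPKM with vehicle and 6.65, 5.32 and 5.5 RPKM with hormone. Adipogenic libraries had 5.54, 4.31 and 5.38 RPKM with vehicle and 9.25, 8.96 and 9.99 RPKM with hormone. Neither pair of groups overlapped, and the difference was 1.88 ± 0.18 (adjusted p = 8.81e-07). It was 1 of 16 genes that fell at day 0, rose in adipogenic cells and were called for the difference.

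Genes of the smooth muscle contractile apparatus were among those 16. Of 10 listed smooth muscle and pericyte markers, 5 reached 10 RPKM, and 3 of these were called higher (Tagln, Acta2, Myl9) and 0 lower, with a median difference of 1.23 beside 0.03 over all genes above 10 RPKM. All 5 fell at day 0 and 3 rose in adipogenic cells. Over all 10 members tested, 4 were called higher, Cnn1 being the fourth, and 6 fell at day 0, beside 2.46% and 11.0% of all 21097 genes tested. After median-ratio rescaling 3 of the 10 fell at day 0. The 3 smooth muscle markers Acta2, Tagln and Myh11 summed to 738 to 749.6 RPKM with vehicle and 418 to 460.1 RPKM with hormone at day 0, and to 91.5 to 98.2 and 148 to 154 RPKM in adipogenic cells. A part of smooth muscle cells in these values was not tested. Acta2, smooth muscle alpha-actin, went from 693, 691 and 686 to 419, 432 and 393 RPKM at day 0. In adipogenic cells it went from 84.4, 88.3 and 79.8 to 131, 138 and 135 RPKM. The libraries of a group lay close together and no pair of groups overlapped, with a difference of 1.41 ± 0.10 (adjusted p = 2.18e-08).

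Tagln, the actin-binding protein transgelin, fell from 55.9, 46.1 and 53.5 to 22.4, 28.0 and 25.4 RPKM and rose from 8.60, 8.44 and 10.3 to 14.8, 15.0 and 12.7 RPKM, with a difference of 1.59 ± 0.17 (adjusted p = 2.63e-06). Myl9, the regulatory light chain of smooth muscle myosin, fell from 245, 247 and 285 to 188, 191 and 176 RPKM and rose from 38.1, 42.3 and 43.9 to 67.7, 65.8 and 77.9 RPKM, with a difference of 1.23 ± 0.12 (adjusted p = 1.57e-06). The difference of these 3 genes was called under each of the 25 alternatives. Myh11, the smooth muscle myosin heavy chain that defines mature smooth muscle, was at 0.446 to 1.61 RPKM in the 4 group means. Also among the 16 were the LIM-domain protein Csrp1 (1.37) and the myosin light chain kinase Mylk (0.80). Both stood outside the rule for named genes and were named after their values were seen.

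**Figure D4:**
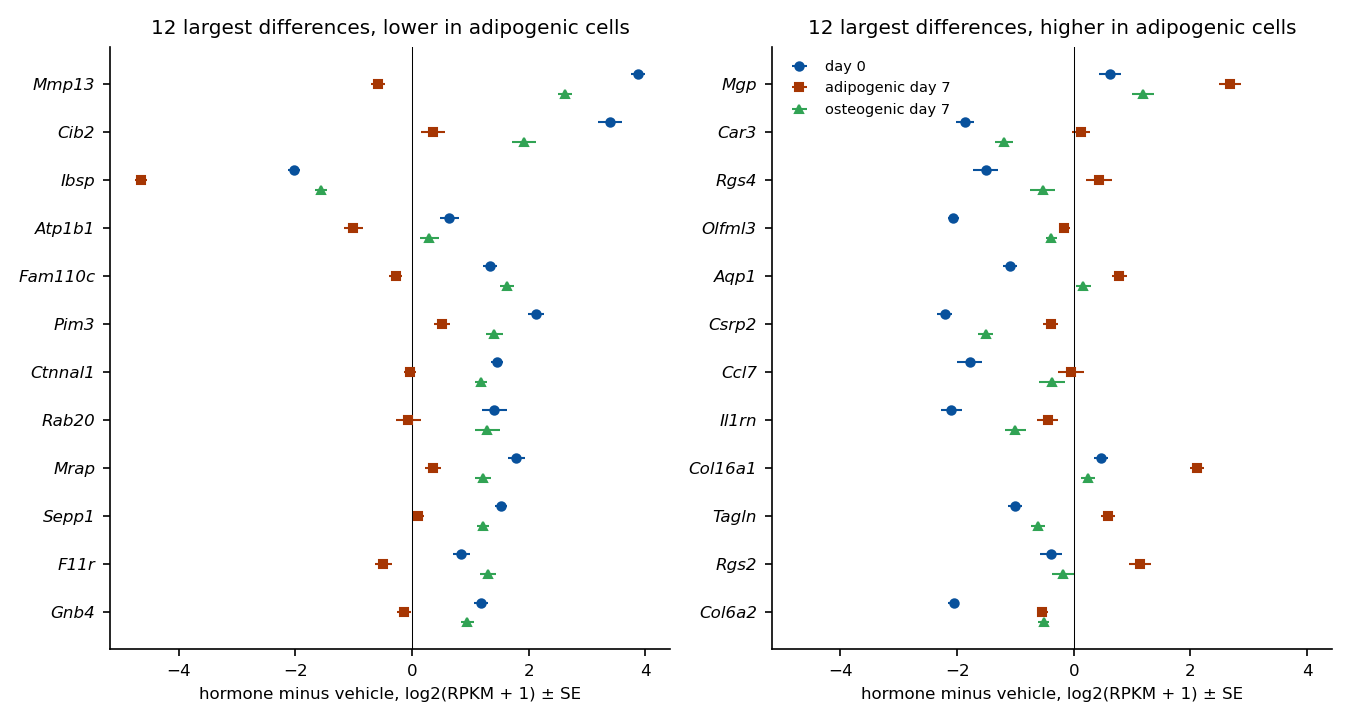
Hormone minus vehicle (log2(RPKM + 1) ± SE from the fit, x axis) at day 0, on adipogenic day 7 and on osteogenic day 7 for the 12 genes with the largest lower (left) and the 12 with the largest higher (right) effects in adipogenic cells. On the left most circles (day 0) and triangles (osteogenic) lie to the right of 0 and the squares (adipogenic) near 0, except Ibsp, which falls in all 3 states, and Atp1b1 and Mmp13, whose squares lie left of 0; on the right most circles lie to the left of 0 and the squares near or right of it.

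Matrix genes made up a further group. Of 36 listed genes of the extracellular matrix and its remodelling, 30 reached 10 RPKM, with 9 called higher and 3 lower (Mmp13, Col3a1, Col4a2), beside 4.12% and 2.83% of all genes above 10 RPKM, and a median difference of 0.16. At day 0 4 of the 30 rose and 16 fell, beside 10.2% and 10.7% of all genes above 10 RPKM. In adipogenic cells 3 rose and 11 fell, beside 3.47% and 1.46%. Col6a2, a chain of collagen VI, which surrounds adipocytes, fell from 67.2, 67.5 and 63.2 to 15.8, 14.6 and 14.8 RPKM at day 0. Its adipogenic levels were 99.5, 110.1 and 112 RPKM with vehicle and 72.3, 66.8 and 81.1 RPKM with hormone. Both falls passed the test, 4.38-fold and 1.46-fold, and the difference was 1.52 ± 0.13 (adjusted p = 2.83e-07).

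Col6a1, its partner chain, fell from 218, 226 and 234 to 59.7, 73.1 and 65.9 RPKM at day 0 and from 207, 181 and 196 to 132, 141 and 156 RPKM in adipogenic cells, with a difference of 1.32 ± 0.12 (adjusted p = 8.81e-07). After median-ratio rescaling, 2 of 28 matrix genes were called higher and 3 lower.

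Of 26 listed mature adipocyte genes, 21 reached 10 RPKM. By limma's adjusted p, 0 of the 21 were called for the hormone effect on adipogenic day 7, beside 4.92% of all genes above 10 RPKM. At an unadjusted p below 0.05 there were 2. At day 0, 2 of the 21 rose and 7 fell, beside 10.2% and 10.7% of all such genes. For the difference, 4 were called higher (Car3, Agt, Adipoq, Plin4) and 2 lower (Plin2, Lpl), beside 4.12% and 2.83%. Fabp4, the fatty acid carrier and the most abundant of the adipocyte markers, read 23561, 21905 and 22113 RPKM with vehicle and 18873, 21581 and 21395 RPKM with hormone in adipogenic cells. At day 0 it was 38.9, 56.2 and 57.7 RPKM with vehicle and 37.6, 42.7 and 29.7 RPKM with hormone, and the difference of 0.33 ± 0.25 was not called (adjusted p = 0.420).

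Adipoq, the hormone adiponectin, fell from 25.3, 27.8 and 26.1 to 14.2, 17.4 and 17.5 RPKM at day 0. On adipogenic day 7 it was 3235, 2886 and 2974 RPKM with vehicle and 3279.5, 3578 and 3811 RPKM with hormone, a change that did not pass the test. The difference was 0.89 ± 0.18 (adjusted p = 0.00666), and it was not called with median-ratio rescaling (0.56, adjusted p = 0.200) or a pseudocount of 0.1 (0.92, adjusted p = 0.0525). Car3, a carbonic anhydrase abundant in fat, went from 4.07, 5.62 and 7.58 to 0.709, 0.671 and 1.06 RPKM at day 0, where 2 of the 3 hormone libraries lay below their background median. It read 245, 228 and 239 RPKM with vehicle and 264, 285 and 230.2 RPKM with hormone in adipogenic cells, and the difference was 1.99 ± 0.22 (adjusted p = 4.91e-06). Subtraction of an equal background ended this call (1.20, adjusted p = 0.102).

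Agt, angiotensinogen, fell 2.20-fold at day 0 and had values of 343, 350.3 and 333 and 368, 413 and 369 RPKM in adipogenic cells, with a difference of 1.24 ± 0.23. That call was lost with a pseudocount of 0.1 (1.3, adjusted p = 0.195). Plin2, a lipid droplet coat protein, had the opposite sign. It rose from 88.4, 88.6 and 92.8 to 129, 151 and 138 RPKM at day 0 and read 1180.3, 1123 and 1208 RPKM with vehicle and 964, 993 and 1105 RPKM with hormone in adipogenic cells. Its difference was -0.82 ± 0.12 (adjusted p = 0.000335).

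Of 26 listed adipogenic regulators, 10 reached 10 RPKM, and 1 of these, Bmp4, was called lower for the difference. Over all genes above 10 RPKM, 2.83% were called lower and 6.95% in either direction. Pparg was 29.0, 32.5 and 34.4 RPKM with vehicle and 33.0, 32.4 and 28.9 RPKM with hormone at day 0. On adipogenic day 7 it was 119, 127 and 110.2 RPKM with vehicle and 115, 124 and 126 RPKM with hormone. Values overlapped in both states, and the difference was 0.06 ± 0.15 (adjusted p = 0.831). Cebpa had 65.0, 85.8 and 66.2 RPKM with vehicle and 74.8, 56.9 and 49.1 RPKM with hormone at day 0, again with overlap. Its adipogenic values were 173, 143 and 156 and 109, 111 and 105 RPKM, all hormone libraries below all vehicle libraries, but neither that effect (-0.53 ± 0.16, adjusted p = 0.115) nor the difference (-0.26 ± 0.23, adjusted p = 0.472) passed. Bmp4, a bone morphogenetic protein that commits stromal cells to the fat lineage, was at 10.7, 13.1 and 10.3 and 13.6, 12.3 and 13.2 RPKM at day 0. It fell from 6.87, 6.45 and 6.29 to 4.16, 2.91 and 2.96 RPKM in adipogenic cells, with a difference of -1.0 ± 0.22 (adjusted p = 0.0104).

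Among genes of fatty acid and triglyceride synthesis, 16 of 18 reached 10 RPKM. Of these, 5 were called higher and 0 lower, beside 4.12% and 2.83% of all genes above 10 RPKM. The median difference was 0.34, beside 0.03 over all genes above 10 RPKM. Elovl6, the elongase of palmitate, was the member that rose in adipogenic cells. It was 14.7, 14.4 and 14.5 RPKM with vehicle and 14.4, 12.6 and 14.6 RPKM with hormone at day 0, and it rose from 3.34, 3.56 and 3.46 to 8.75, 9.15 and 9.08 RPKM in adipogenic cells. The difference was 1.24 ± 0.13 (adjusted p = 3.52e-06). The stearoyl-CoA desaturases Scd1 and Scd2 and fatty acid synthase Fasn were called through day 0 falls of 1.51-fold, 1.69-fold and 1.38-fold, with differences of 0.75 ± 0.12, 0.63 ± 0.12 and 0.57 ± 0.12. Scd1 read 9609.7, 9904 and 9176 RPKM with vehicle and 11461, 10481 and 10089 RPKM with hormone in adipogenic cells, where its effect did not pass the test. Fasn, with day 0 means of 8.46 and 6.14 RPKM, was no longer called after subtraction of an equal (0.52, adjusted p = 0.364) or GC-matched background (0.44, adjusted p = 0.117) or after quantile normalization (0.48, adjusted p = 0.114), nor was Scd1 after quantile normalization (0.50, adjusted p = 0.0747). With median-ratio rescaling 1 of the 16 remained higher (Elovl6) and 1 was lower.

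Genes of cholesterol synthesis and uptake mostly fell at day 0, and 1 was called in adipogenic cells. Of 26 listed, 17 reached 10 RPKM, and at day 0 1 of them rose and 13 fell, while in adipogenic cells 1 rose and 0 fell. Over all genes above 10 RPKM, 10.2% rose and 10.7% fell at day 0, and 3.47% rose and 1.46% fell in adipogenic cells. Over all 24 members tested, 16 fell at day 0. The count of falls at day 0 depended on the scaling, with 4 of 18 after median-ratio rescaling. The difference was called higher for 8 (among them Insig1, Ebp, Idi1 and Fdft1) and lower for Insig2, with a median of 0.57. Over all genes above 10 RPKM the shares were 4.12% and 2.83% and the median 0.03. Insig1, the sterol sensor that retains SREBP in the endoplasmic reticulum, fell from 197, 208 and 192 to 105, 102 and 98.6 RPKM at day 0. Its adipogenic values overlapped, with 671, 564 and 651 RPKM with vehicle and 598, 581 and 653 RPKM with hormone. The difference was 0.92 ± 0.13 (adjusted p = 9.31e-05).

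Ebp, a sterol isomerase, fell 1.90-fold and Idi1, the isopentenyl diphosphate isomerase, 1.93-fold at day 0, with differences of 0.87 ± 0.17 and 0.81 ± 0.17. Fdft1, squalene synthase, was called for the difference (0.67 ± 0.16, adjusted p = 0.0229) though neither single effect passed. Under median-ratio rescaling 0 of 18 were called higher and 1 lower by limma's adjusted p, with a median of 0.25 beside -0.30 over all genes. Without day 0 hormone replicate 2, 5 were called higher and 1 lower.

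In the oxidative phosphorylation list 22 of 22 genes reached 10 RPKM and 1 was called, Idh3a, a subunit of the citrate cycle's isocitrate dehydrogenase. It rose from 21.3, 16.9 and 21.1 to 40.8, 43.1 and 40.3 RPKM at day 0 and had 175, 177 and 191 and 197, 199 and 206 RPKM in adipogenic cells, with a difference of -0.89 ± 0.13 (adjusted p = 0.000341). For fatty acid oxidation 0 of 15 genes above 10 RPKM were called for the difference by limma's adjusted p, as were 0 of 16 interferon-responsive genes and 0 of 11 immediate early and stress genes, with medians of 0.09, -0.03 and 0.07. At an unadjusted p below 0.05 these lists held 1, 3 and 2 genes. Over all genes above 10 RPKM, 6.95% were called for the difference.

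Chemokines, cytokines and acute phase genes differed in both directions. Of 16 above 10 RPKM (26 listed), 4 were called higher and 2 lower, beside 4.12% and 2.83% of all genes at that level. At day 0, 5 of the 16 rose and 8 fell, beside 10.2% and 10.7%, and 3 rose and 2 fell in adipogenic cells, beside 3.47% and 1.46%. Il1rn, the interleukin-1 receptor antagonist, fell from 98.1, 103 and 114 to 25.9, 20.6 and 24.8 RPKM at day 0. It read 6.37, 5.35 and 5.02 RPKM with vehicle and 4.41, 4.43 and 2.80 RPKM with hormone in adipogenic cells, and the difference was 1.66 ± 0.25 (adjusted p = 0.000372). Ccl7, a monocyte-attracting chemokine, fell from 40.6, 36.6 and 31.4 to 12, 9.98 and 7.63 RPKM at day 0 and was at 1.01 to 2.08 RPKM in the adipogenic libraries, with a difference of 1.74 ± 0.31 (adjusted p = 0.00204).

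Il1rl1, the receptor of interleukin-33, fell 2.36-fold at day 0 and lay at 0.667 to 1.5 RPKM in adipogenic cells, with a difference of 1.43 ± 0.18. Ccl9, another chemokine, was the one of the listed genes called higher for the difference that rose in adipogenic cells instead. It read 6.47, 9.95 and 10.1 RPKM with vehicle and 8.24, 7.21 and 9.41 RPKM with hormone at day 0, and rose from 34.6, 30.3 and 30.4 to 57.8, 77.8 and 72.1 RPKM in adipogenic cells (difference 1.16 ± 0.25, adjusted p = 0.0106). The call was lost after subtraction of an equal (0.84, adjusted p = 0.227) or GC-matched background (0.76, adjusted p = 0.192) and after median-ratio rescaling (0.86, adjusted p = 0.0845). The 2 called lower, complement C3 (-1.01) and haptoglobin Hp (-1.04), were named after their values were seen.

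Among Wnt ligands, antagonists and targets, 11 of 25 reached 10 RPKM, with 3 called higher and 1 lower, beside 4.12% and 2.83% of all genes above 10 RPKM. Wisp1, a secreted Wnt target, fell from 17.1, 16.6 and 16.0 to 6.24, 5.91 and 6.25 RPKM at day 0 and from 3.75, 3.39 and 3.36 to 2.64, 2.57 and 2.58 RPKM in adipogenic cells, with a difference of 0.98 ± 0.11 (adjusted p = 4.91e-06). The antagonist Sfrp1 fell 2.07-fold at day 0 from 232, 245 and 219 RPKM, and was at 2.53 to 4.02 RPKM in adipogenic cells, with a difference of 0.88 ± 0.13. Sfrp2 fell in both states, 4.23-fold and 2.39-fold, with a difference of 0.80 ± 0.18 (adjusted p = 0.0161). Rspo2, an R-spondin that strengthens Wnt signals, fell from 3.75, 3.96 and 4.93 to 2.14, 1.98 and 2.23 RPKM in adipogenic cells and did not pass at day 0, with a difference of -0.52 ± 0.13 (adjusted p = 0.0262). Wisp1, Sfrp1, Sfrp2 and Rspo2 reached 10 RPKM at day 0 alone. With median ratios 0 of 10 Wnt genes were called higher and 1 lower.

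Of 28 BMP and TGF-beta genes, 14 reached 10 RPKM. Of these, 4 were called higher and 2 lower, beside 4.12% and 2.83% of all genes above 10 RPKM. The inhibitors of DNA binding Id1 and Id2, targets of BMP signals, had opposite signs. Id1 was 9.84, 9.48 and 13.4 and 8.87, 8.72 and 11.1 RPKM at day 0, with overlap, and fell from 11.2, 7.98 and 10.3 to 3.21, 4.19 and 3.45 RPKM in adipogenic cells (difference -1.06 ± 0.27, adjusted p = 0.0304). Id2 was 6.77, 6.23 and 7.50 and 7.07, 6.59 and 4.08 RPKM at day 0 and rose from 5.73, 6.69 and 6.66 to 16.7, 14.2 and 9.96 RPKM in adipogenic cells (difference 1.17 ± 0.28, adjusted p = 0.0197). Leaving out 1 library ended the call of Id1 in 7 of the 12 cases and of Id2 in 4 of them. The call of Id1 was also lost with the replicate block (adjusted p = 0.0603). That of Id2 was lost after subtraction of an equal (1.06, adjusted p = 0.210) or GC-matched background (0.88, adjusted p = 0.225), quantile normalization (0.95, adjusted p = 0.116) and median-ratio rescaling (0.88, adjusted p = 0.110). Inhba, the activin A subunit, fell 2.39-fold at day 0 and had a difference of 1.17 ± 0.21 (adjusted p = 0.00163).

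Genes of the cell cycle and DNA replication fell with hormone at day 0 in 22 of the 26 members tested, beside 11.0% of all 21097 genes tested. All 17 members above 10 RPKM were among the 22, but apart from Mcm7 and Pcna they reached that level at day 0 alone. After median-ratio rescaling 10 of the 26 fell at day 0, and 6 of the 12 then above 10 RPKM. In adipogenic cells 0 of the 26 rose and 1 fell. The difference was called higher for 7 and lower for 0, beside 2.46% called higher of all 21097 genes tested. Its median was 0.57 over the 26 and 0.31 over all genes tested. Ccna2, cyclin A2, went from 25.6, 25.6 and 27.6 to 13.4, 12.5 and 15.4 RPKM at day 0. In adipogenic cells it was 2.08, 2.34 and 2.48 RPKM with vehicle and 3.25, 3.25 and 2.65 RPKM with hormone, and the difference was 1.18 ± 0.17 (adjusted p = 0.000188). The cyclin-dependent kinase Cdk1 fell from 15.3, 14 and 15.9 to 9.84, 8.04 and 9.40 RPKM at day 0, with a difference of 0.76 ± 0.18, and was at 3.25 to 5.04 RPKM in adipogenic cells.

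The replication helicase subunit Mcm5 and the spindle checkpoint kinase Bub1b fell 2.16-fold and 2.01-fold at day 0, with differences of 1.03 ± 0.23 and 0.75 ± 0.17, and lay at 0.784 to 1.65 RPKM in adipogenic cells. The list's count was 5 of 17 without day 0 hormone replicate 2, 4 of 17 after quantile normalization, 1 of 12 after median-ratio rescaling and 1 of 10 after subtraction of an equal background.

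Of the remaining lists, insulin and IGF signalling had 1 called higher and 2 lower of 10 above 10 RPKM, beside 4.12% and 2.83% of all genes at that level. Igfbp4, an IGF-binding protein, rose from 89.0, 108 and 110.1 to 182, 199 and 178 RPKM at day 0 and was 28.7, 25.6 and 32.3 and 25.9, 26.4 and 27.7 RPKM in adipogenic cells, with a difference of -0.97 ± 0.16 (adjusted p = 0.000958). Igf2r, the receptor that clears IGF2, rose 1.43-fold at day 0 (difference -0.57 ± 0.11), and the adaptor Grb10 fell 1.44-fold (difference 0.59 ± 0.13). Of 14 glucocorticoid-responsive genes above 10 RPKM, 1 was called, beside 6.95% of all such genes, Angptl4, an inhibitor of lipoprotein lipase (difference 0.53 ± 0.14, adjusted p = 0.0359), and the call was lost in 8 of 12 fits without 1 library and under 5 other alternatives. The osteoblast list had 1 higher (Alpl) and 1 lower (Ibsp) of 10, beside the same 4.12% and 2.83%. The 4 osteoblast markers summed to 15.1 to 18.0 RPKM with vehicle and 8.55 to 9.98 RPKM with hormone at day 0, and to 104 to 119.2 and 5.84 to 10.2 RPKM in adipogenic cells. Ibsp made up most of the adipogenic vehicle sum, with means of 104.3 RPKM with vehicle and 3.23 RPKM with hormone. The mean of Sp7 was also lower with hormone there (2.26 and 0.920 RPKM), while those of Bglap (1.63 and 2.20) and Dmp1 (1.82 and 1.98) were not. At day 0 Ibsp, Sp7 and Dmp1 had lower means with hormone and Bglap did not. The part of osteoblasts in these values was not tested. The stromal list had 0 calls in 7 and the abundant noncoding RNAs 0 in 5 (limma adjusted p, with 4 and 3 at an unadjusted p below 0.05). Of 7 stromal genes, 5 fell at day 0 and 1 in adipogenic cells, beside 10.7% and 1.46% of all genes above 10 RPKM. Of the stromal markers, Pdgfra, Pdgfrb and Ly6a reached 10 RPKM at day 0 alone, so the counts of the 2 states are not on equal terms.

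**Figure D5:**
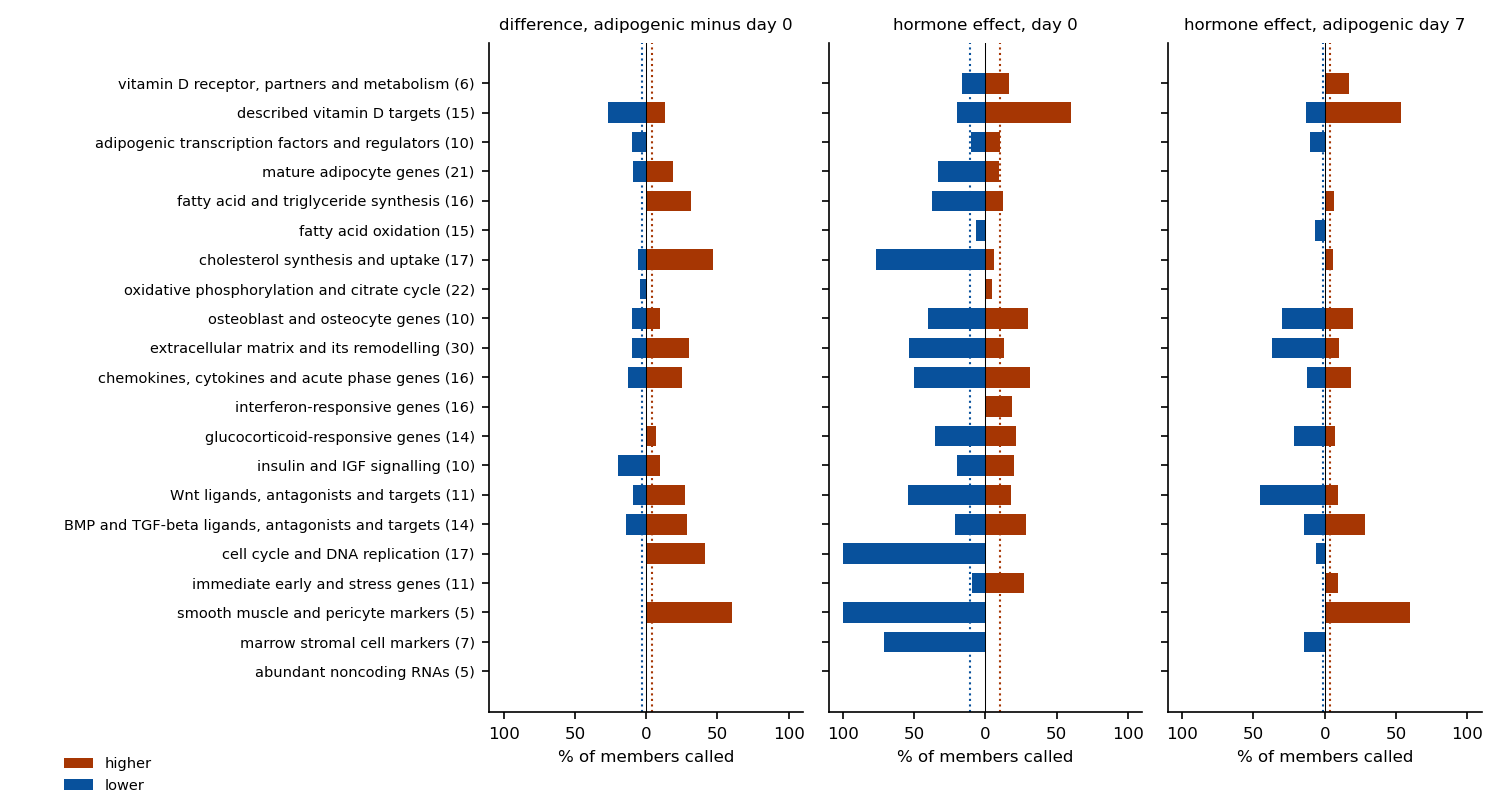
Percent of list members above 10 RPKM (number in brackets) that were called higher (right of 0) or lower (left of 0) for the difference of hormone effects, the effect at day 0 and the effect on adipogenic day 7; dotted lines give the same shares over all genes above 10 RPKM. Cell cycle and smooth muscle genes above 10 RPKM were all called lower with hormone at day 0. The adipocyte genes show no bar in the adipogenic panel. The same holds for the lists of oxidative phosphorylation, interferon-responsive genes, insulin and IGF signalling and abundant noncoding RNAs.

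The same genes were also followed in cells kept for 7 days in osteogenic medium (beta-glycerophosphate and ascorbic acid), with 3 vehicle and 3 hormone libraries treated as above. The hormone raised 5.75% and lowered 5.59% of genes above 10 RPKM there (11.3% in all). The difference between adipogenic and osteogenic day 7 was called for 4.27% of genes above 10 RPKM (2.41% higher and 1.86% lower in adipogenic cells), and it shares the 6 adipogenic libraries with the difference from day 0. Mmp13 rose 6.21-fold and Cib2 7.91-fold on osteogenic day 7, beside 15.6-fold and 14.5-fold at day 0. Ibsp fell 2.96-fold there, beside 5.97-fold at day 0 and 32.3-fold in adipogenic cells. Acta2 (-0.37), Tagln (-0.62) and Myl9 (-0.48) fell on osteogenic day 7 as at day 0. Over the sensory receptor genes the median of this difference was 0.02 with 0 called.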

How the data were processed

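RNA of 24 mouse MSC libraries was depleted of ribosomal RNA and made into directional libraries, per the labels' protocols. Reads were aligned with TopHat to mm9, per the submitters' processing notes. The authors deposited RPKM values per transcript. The quantifier, its annotation and the TopHat version are not given in the sources used here. RPKM values of the transcripts of a symbol were summed (25385 genes, after 25 symbols turned into dates were dropped). Depth was estimated from low values, of which 97.3% to 100% were whole reads within 0.1 read. At that depth 3 reads on 1000 bases are worth 0.0779 to 0.421 RPKM, which covers counting error only.

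Values were tested as log2(RPKM + 1), a scale that understates the change of low genes, with limma 3.58.1 (R 4.3.3). The fit held 8 groups of 3 libraries, with trended and robust empirical Bayes. Genes needed 1 RPKM in 3 libraries, and p-values were adjusted by Benjamini-Hochberg over 21097 genes. All adjusted p-values in the text are from limma. A called gene has an adjusted p below 0.05. A fold is the ratio of group mean RPKM. Genes named are, among called genes of at least 10 RPKM, the 12 with the largest difference in each direction (leaving out predicted, clone, small RNA, histone and sensory receptor genes) and up to 4 per list of 24 lists by size of difference, and in every case Vdr, Cyp24a1, Pparg, Cebpa, Fabp4, Adipoq and Spp1; some genes under this rule are not reported here. Members and lists were chosen with earlier results of these data known. In all, 24 alternatives were planned and 1, median-ratio rescaling over genes of 20 RPKM, was chosen after seeing the data. Promoters are from RefSeq on GRCm38.p6.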

Additional observations from a re-analysis of the deposited data

Results flagged for a closer look

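The hormone effect was compared between adipogenic and osteogenic day 7 for the 24 genes with the largest differences from day 0 and the 7 named in every case. It differed for 20 of them by limma's test of the difference itself (adjusted p below 0.05), beside 4.27% of all genes above 10 RPKM. Other genes named also passed this test and are not listed here. The osteogenic libraries are not part of the main comparison, and the 6 adipogenic libraries are shared with it. Since the 24 genes were picked by that comparison, the count of 20 is no separate support for it. Lower effects in adipogenic than in osteogenic cells, in log2, were found for Mmp13 (-3.20), Ibsp (-3.07), Cyp24a1 (-2.51), Fam110c (-1.91), F11r (-1.80), Cib2 (-1.56), Rab20 (-1.35), Atp1b1 (-1.30), Ctnnal1 (-1.22), Sepp1 (-1.11), Gnb4 (-1.08), Cebpa (-1.06), Pim3 (-0.90) and Mrap (-0.86). Higher effects were found for Col16a1 (1.87), Mgp (1.49), Rgs2 (1.32), Car3 (1.31), Tagln (1.20) and Csrp2 (1.11). Cyp24a1 and Cebpa were called here and not in the difference from day 0.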

How the results depend on the processing

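There were 25 alternatives. Of the 66 genes named, 37 kept their side of the threshold and, if called, their direction under every alternative that tested them. The same held for 21 of the 24 with the largest differences. Of named genes called in the main fit or the alternative, 2 changed sign. Enpp3 was 0.089 with a pseudocount of 0.1 and Sepp1 was 0.13 with the largest transcript. Sign changes of genes called in neither fit were not counted. Vdr (-0.32 to 1.04), Spp1 (-0.25 to 0.45), Pparg (-0.27 to 0.13), Fabp4 (-0.007 to 0.51) and Cyp24a1 (-1.85 to 0.25) had values of both signs over the settings. Median-ratio rescaling gave 46 higher differences, 111 rises and 67 falls in adipogenic cells and 1001 rises and 207 falls at day 0. It ended the calls of 20 genes named, among them Insig1, Ebp, Idi1, Fdft1, Scd1, Scd2, Fasn, Adipoq, Wisp1, Cdk1, Mcm5, Bub1b, Ccl9, Id2, Inhba, Sfrp1, Sfrp2, Grb10 and Angptl4. Both background subtractions ended those of Bub1b, Ccl9, Fasn, Id2 and Rgs2, and the equal one also those of Alpl, Angptl4, Car3, Cdk1 and Mcm5. Further calls were lost with quantile normalization (Bub1b, Fasn, Id2, Mcm5, Scd1), a pseudocount of 0.1 (Adipoq, Agt, Bub1b, Mcm5), the replicate block (Angptl4, Bub1b, Grb10, Id1, Mcm5, Rspo2) and a fit on only these 12 libraries (Angptl4, Cdk1, Mcm5, Rspo2, Sfrp2), and Angptl4 was also lost with plain empirical Bayes. Subtraction of an equal background gave 163 higher and 315 lower differences and 966 rises and 440 falls at day 0, and the GC-matched one 360 lower differences and 1062 rises and 490 falls at day 0. Quantile normalization gave 332 lower differences, and a floor of 20 RPKM left 485 falls at day 0. The cause was not tested, except that the higher floor leaves fewer genes.

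Leaving out 1 library gave 197 to 416 higher and 142 to 265 lower differences, 185 to 244 rises and 73 to 101 falls in adipogenic cells, and 482 to 768 rises and 551 to 1075 falls at day 0. The calls of Cdk1, Fdft1, Rspo2, Sfrp2, Id1, Id2 and Angptl4 were lost without 1 library or another, with differences from 0.64 to 0.73 for Cdk1, 0.60 to 0.67 for Fdft1, -0.51 to -0.43 for Rspo2, 0.68 to 0.70 for Sfrp2, -1.03 to -0.96 for Id1, 1.02 to 1.13 for Id2 and 0.42 to 0.54 for Angptl4 in those fits. With the replicate number as a block, 193 higher and 120 lower differences were called. Deviations of libraries with the same number correlated at -0.18, 0.01 and 0.19 at day 0 and -0.13, -0.05 and 0.04 in adipogenic cells. Those of libraries with different numbers correlated at -0.17 to 0.19 and -0.15 to 0.22. Deviations from means of 3 libraries cannot show whether the numbers pair the libraries, so pairing remains unknown. Low values limit what can be seen at day 0, where background reached a median of 4.93 RPKM.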
